A study of Mus musculus with 4 samples.

Results

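The nuclear genes of respiratory chain complexes III and IV, of cytochrome c and of ATP synthase were followed in 4 mouse brain sections. Members were taken by symbol: every gene of the count files whose symbol begins with Uqcr, Atp5, Cox4, Cox5, Cox6, Cox7 or Cox8, plus Cyc1 and Cycs, with pseudogene symbols (-ps) left out. The rule gave 45 of the 32285 genes in the files: 9 of complex III, 1 for cytochrome c, 18 of complex IV and 17 of ATP synthase. The rule uses symbols alone, but the gene group was chosen with earlier results of these data known.

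Each section came from a different adult male mouse of the ArcCreERT2::eYFPflx line on a C57BL/6 background, a few months old, and was cut in the coronal plane at the level of the dorsal hippocampus. In this line a Cre recombinase that needs tamoxifen is expressed from the promoter of Arc, an activity-regulated gene, so that eYFP is switched on in cells that use Arc around the injection. The 2 Trained mice had learned to avoid a shock zone on a rotating arena (active place avoidance), and the 2 Untrained mice spent the same sessions on the arena with no shock. All 4 mice, the Untrained included, carried the transgenes, received 4-hydroxytamoxifen under brief isoflurane anesthesia and went through a retention test with no shock, and tissue was taken 3 days after it. The comparison asks what differs in brain tissue while an avoidance memory is kept without recall.

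Complex III passes electrons from ubiquinol to cytochrome c, the small carrier protein encoded by Cycs, and complex IV passes them from cytochrome c to oxygen. Both pump protons across the inner mitochondrial membrane, and ATP synthase lets protons back to make ATP. Neurons draw most of their ATP from this path. The catalytic core of complex IV, one subunit of complex III and parts of the ATP synthase proton channel are encoded in mitochondrial DNA, and the 45 genes here encode the nuclear subunits that are built around them. Several complex IV subunits come as pairs of isoforms, one used in most tissues (Cox4i1, Cox6a1, Cox6b1, Cox7a2, Cox8a) and one known from particular tissues: Cox4i2 from lung, Cox6a2, Cox7a1 and Cox8b from heart and skeletal muscle, and Cox6b2, Cox7b2 and Cox8c from testis.

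Expression was measured with Visium, which captures polyadenylated RNA on an array of barcoded spots and counts molecules by UMI (unique molecular identifier). The sections held 2359 to 3055 spots over tissue and 3560294 to 10330015 UMIs, with the fewest in Untrained 1 and the most in Trained 2, and the median spot held 1048 to 2493 UMIs. In Untrained 1 the capture area missed part of the dorsal cortex. Values are given as CPM, the UMIs of a gene per 1000000 UMIs of the same section or region. Each spot is wider than a cell, so that fewer cells of a kind and less RNA per cell cannot be told apart. Spots were placed in 14 brain regions by fixed lists of marker genes that hold none of the 45 genes, and 647 to 730 spots per section stayed in no region. The spots of the CA1, CA3 and DG cell layers together are called the hippocampal layers (221 to 252 spots per section). The 1330 spot barcodes that all 4 sections share are array positions, which repeat on every slide, and not shared cells.

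The 45 genes together took up more of the UMIs of the Trained sections. The share was 2.78% in Trained 1, 3.28% in Trained 2, 2.28% in Untrained 1 and 2.58% in Untrained 2, and the exact (Clopper-Pearson) 95% binomial interval was at most 0.0155 percentage points to either side, which covers counting error only. The groups did not overlap, but the 2 Trained sections stood 0.507 percentage points apart and the 2 Untrained sections 0.299 percentage points apart, against 0.198 between Trained 1 and Untrained 2. With 2 sections against 2, the smallest two-sided p of an exact permutation test is 0.333; no other test was run on the shares. Each complex had the same order of sections. Complex III took 0.402%, 0.501%, 0.332% and 0.369% of UMIs in Trained 1, Trained 2, Untrained 1 and Untrained 2. Complex IV took 1.13%, 1.33%, 0.904% and 1.04% in that order of sections. ATP synthase took 1.21%, 1.41%, 1.02% and 1.13%.

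**Figure D1:**
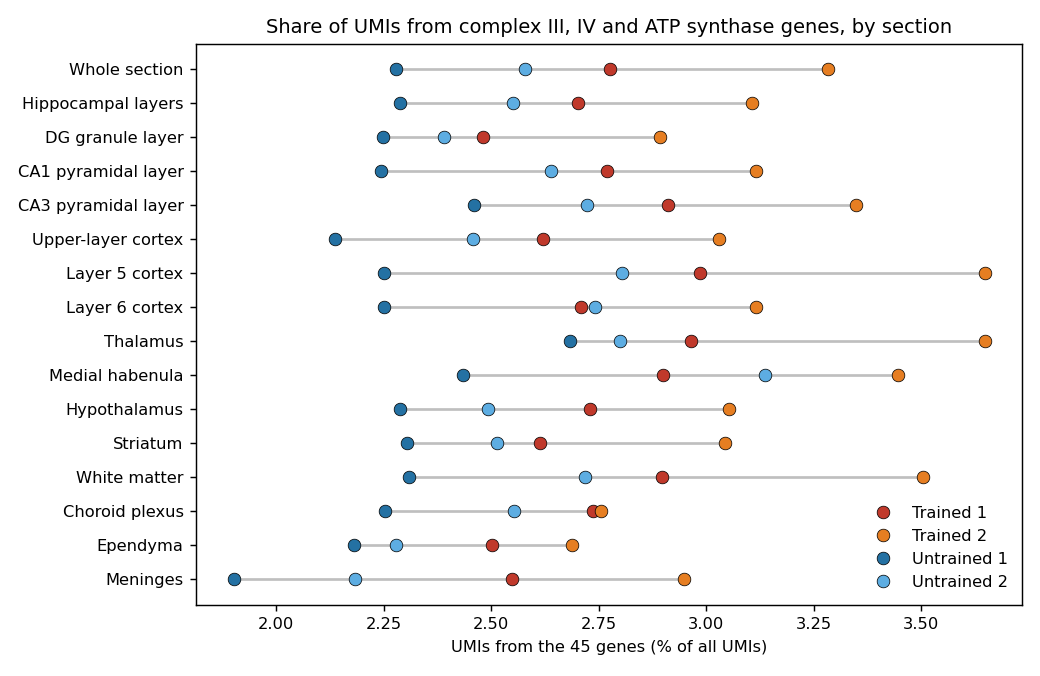
Share of all UMIs (horizontal axis, percent) that came from the 45 genes in each section (points, 1 per section), for the whole section, the hippocampal layers and each of the 14 regions. Both Trained sections lay to the right of both Untrained sections in 12 of the 14 regions; in layer 6 cortex and the medial habenula Untrained 2 lay to the right of Trained 1.

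The order was much the same wherever it was measured. In the hippocampal layers the share was 2.70% and 3.11% in Trained 1 and 2, and 2.29% and 2.55% in Untrained 1 and 2. Both Trained sections were above both Untrained sections in 12 of 14 regions, and the ratio of the Trained to the Untrained mean ran from 1.14 in the medial habenula to 1.34 in the meninges. Trained 2, Trained 1, Untrained 2 and Untrained 1 followed in this order in those 12 regions, which is also the order of the sections by total UMIs. By median UMIs per spot, that order was met in 5 of the 14 regions. When the spots of each region were split at their median depth, the deeper and the shallower spots gave 2.78% and 2.75% in Trained 1, 3.33% and 3.15% in Trained 2, 2.34% and 2.32% in Untrained 1, and 2.61% and 2.58% in Untrained 2. The deeper spots had the larger share in all 4 sections, by the most in Trained 2. The part of depth in the difference between sections was not tested.

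Gene by gene, no member passed the test between Trained and Untrained sections. The counts of all spots of a section were summed and compared with edgeR's quasi-likelihood test over all genes, with Benjamini-Hochberg adjustment over all genes tested and 0.05 as the threshold; p-values here measure the spread between sections of different mice. Of the 45 members 44 passed the filter on low counts, 0 were called, and 2 of all 13810 genes tested were called (0.0145%). At an unadjusted p under 0.05 there were 12 members, against 7.96% of all genes tested, and DESeq2 called 0 members. The estimates leaned one way: 41 of 44 members had a log2 fold change (Trained over Untrained) above 0, with a median of 0.22, while the median of all genes tested was 0.01. In 37 of the 44 members both Trained sections lay above both Untrained sections, which 28.8% of all genes tested did, and Cox4i2 alone lay below, which 12.1% of all genes tested did.

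In complex III all 9 members had values above 0. The 2 largest estimates were those of Uqcr10 and Uqcrq, small accessory subunits. Uqcr10 was at 618 and 800 CPM in Trained 1 and 2 and at 461 and 545 CPM in Untrained 1 and 2, and Uqcrq at 656, 866, 510 and 600 CPM in the same order. Neither gene overlapped between the groups, and their log2 fold changes were 0.41 ± 0.14 (SE; edgeR adjusted p = 0.582) and 0.37 ± 0.14 (adjusted p = 0.584). Lower estimates came from the subunits that hold redox centers. Cyc1, the cytochrome c1 subunit, was at 318, 334, 287 and 300 CPM (log2 fold change 0.07 ± 0.11), and Uqcrfs1, the Rieske iron-sulfur protein, at 257, 282, 238 and 236 CPM (0.11 ± 0.11). The core proteins Uqcrc1 and Uqcrc2 gave 0.12 ± 0.12 and 0.08 ± 0.11. Cycs, the gene of cytochrome c itself, was at 369 and 436 CPM in Trained 1 and 2 and at 275 and 319 CPM in Untrained 1 and 2, with a log2 fold change of 0.36 ± 0.12 and an edgeR adjusted p of 0.584.

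In complex IV 15 of 17 tested members had values above 0. Among the isoforms of most tissues, Cox8a was at 1970 and 2266 CPM in Trained 1 and 2 and at 1490 and 1796 CPM in Untrained 1 and 2, with a log2 fold change of 0.29 ± 0.14 (edgeR adjusted p = 0.634). Cox7c, another small subunit, was at 1218, 1581, 881 and 1110 CPM (0.41 ± 0.15, adjusted p = 0.584). Both genes had both Trained sections above both Untrained sections. Cox5a and Cox5b, which are part of every complex IV, gave 0.26 ± 0.12 and 0.21 ± 0.12, and Cox4i1, Cox6a1, Cox6b1 and Cox7a2 gave 0.17 ± 0.13, 0.16 ± 0.13, 0.17 ± 0.12 and 0.25 ± 0.12. Cox7a2l, which takes part in joining complexes III and IV, gave 0.11 ± 0.11.

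The isoforms of particular tissues had few UMIs and the widest estimates. Cox7a1 gave the largest estimate of all members, with 77 and 155 UMIs in Trained 1 and 2 and 24 and 60 in Untrained 1 and 2 (10.8, 15.0, 6.74 and 9.12 CPM; log2 fold change 0.59 ± 0.25, edgeR adjusted p = 0.602). Cox8b gave the lowest value, with 49 and 41 UMIs in Trained 1 and 2 and 21 and 70 in Untrained 1 and 2 (6.88, 3.97, 5.90 and 10.6 CPM; -0.77 ± 0.38, adjusted p = 0.637). Trained 1 lay between the 2 Untrained sections for Cox8b, so that the groups overlapped. Cox4i2 was at 2.53, 4.36, 4.49 and 4.86 CPM (-0.50 ± 0.37), Cox6a2 at 48.7, 62.2, 30.6 and 48.5 CPM (0.38 ± 0.19), and Cox6b2 at 8.57, 10.8, 7.30 and 10.3 CPM (0.03 ± 0.25). Cox7b2, with 10 to 31 UMIs per section, gave 0.24 ± 0.40. Cox8c had 0 UMIs in all 4 sections, which allows up to 0.109 CPM over their 27592052 UMIs together.

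In ATP synthase the 4 largest estimates were those of Atp5md, Atp5j2, Atp5mpl and Atp5e. Atp5md, the DAPIT subunit of ATP synthase dimers, was at 1219 and 1745 CPM in Trained 1 and 2 and at 948 and 1125 CPM in Untrained 1 and 2 (log2 fold change 0.43 ± 0.16, edgeR adjusted p = 0.584). Atp5j2, subunit f, was at 841, 1103, 628 and 734 CPM (0.43 ± 0.14, adjusted p = 0.582). Atp5mpl and Atp5e, subunit epsilon, gave 0.39 ± 0.14 and 0.32 ± 0.13. In the catalytic head, Atp5b, the beta subunit, was at 1252, 1365, 1181 and 1228 CPM (0.04 ± 0.12), and Atp5c1, the gamma subunit, at 401, 458, 401 and 387 CPM (0.04 ± 0.11). Atp5a1, the alpha subunit, gave 0.13 ± 0.12. The 3 genes of subunit c, Atp5g1, Atp5g2 and Atp5g3, which encode the same mature protein, gave 0.11 ± 0.12, -0.02 ± 0.11 and 0.02 ± 0.12.

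**Figure D2:**
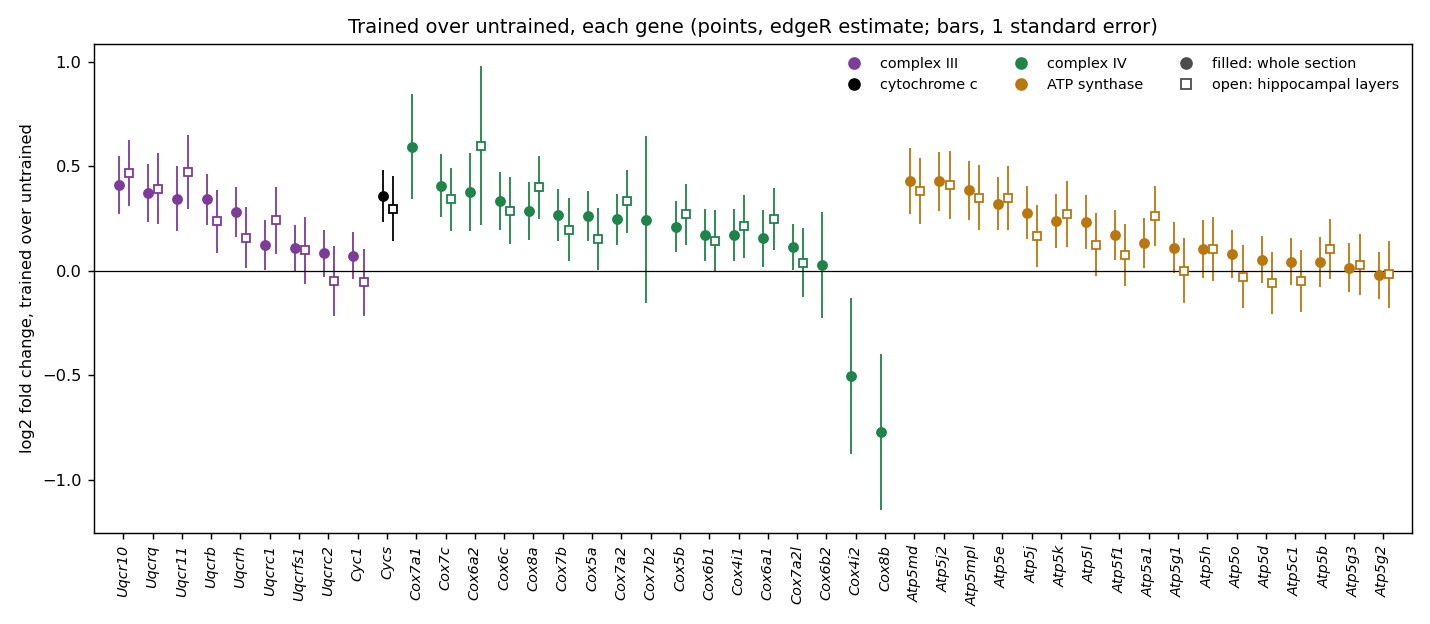
Log2 fold change of each tested member, Trained over Untrained (vertical axis), with 1 standard error, in the whole section (filled) and the hippocampal layers (open), colored by complex. Uqcr10 (0.41), Cox7c (0.41) and Atp5md (0.43) stand high in their complexes, and Cyc1 (0.07), Atp5b (0.04) and Atp5g3 (0.02) near 0; none of the 44 was called.

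The hippocampal layers, the tissue named by the sample labels, gave a like picture with fewer counts. Of the 45 members 39 were tested and 0 were called, against 4 of all 9288 genes tested (0.0431%), with 10 members at an unadjusted p under 0.05 (5.63% of all genes tested) and 0 called by DESeq2. The median log2 fold change was 0.21 (all genes tested 0.00), 33 of 39 were above 0, and in 22 both Trained sections were above both Untrained ones (19.2% of all genes tested). Uqcr11 and Uqcr10, both small complex III subunits, gave 0.47 ± 0.18 and 0.47 ± 0.16 (edgeR adjusted p = 0.809 and 0.777). Uqcr10 was at 645, 807, 464 and 562 CPM in Trained 1, Trained 2, Untrained 1 and Untrained 2, with no overlap. Uqcr11 was at 687, 1078, 546 and 697 CPM, so that Untrained 2 was above Trained 1 and the estimate rested on Trained 2. Cox6a2 gave the largest value, 0.60 ± 0.38, on 21, 35, 4 and 22 UMIs. After Cox6a2, Uqcr11 and Uqcr10, the next largest were Atp5j2 (0.41 ± 0.16) and Cox8a (0.40 ± 0.15). The 5 lowest were Atp5d, the delta subunit, at -0.06 ± 0.15, Cyc1 at -0.06 ± 0.16, Atp5c1 at -0.05 ± 0.15, Uqcrc2 at -0.05 ± 0.17 and Atp5o, the stalk subunit OSCP, at -0.03 ± 0.15. Leaving out Trained 2 took the median of the members from 0.21 to 0.10. In these layers the CA1, CA3 and DG marker sums were each lowest in Trained 2, at 1747, 777 and 290 CPM. The lowest sums among the other sections were 1864, 817 and 419 CPM. Astrocyte markers summed to 2988 CPM in Trained 2 and to 1933 to 2212 CPM in the others. The part of cell composition in these layers was not tested.

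Region by region, 0 of 540 member-region pairs were called, against 0.0351% of all gene-region pairs, and 56 had an unadjusted p under 0.05 (5.71% of all pairs); DESeq2 also called 0. The median over members was above 0 in 14 of 14 regions, from 0.11 in layer 6 cortex to 0.27 in the meninges, while the medians over all genes ran from -0.03 to 0.01. In layer 5 cortex all 39 tested members were above 0, and in layer 6 cortex 25 of 38 were. Both Trained sections were above both Untrained ones in 297 of the 540 pairs (21.7% of all gene-region pairs) and below them in 10 (13.9%). The regions come from the same 4 sections, so that they are not independent repeats of the comparison.

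The sign of the estimate held over regions in part of the members. Of the 38 members tested in all 14 regions, 13 had a log2 fold change above 0 in each, which 4.72% of all genes tested in 14 regions did. These were Uqcr10, Uqcr11, Uqcrb and Uqcrq of complex III, Cox6c, Cox7a2 and Cox7c of complex IV, and Atp5e, Atp5j, Atp5j2, Atp5k, Atp5l and Atp5md of ATP synthase. Among the others Cox8a was above 0 in 13 regions, Uqcrh, Cox7b and Atp5mpl in 12, Cox6a1 in 11 and Cox6b1 in 10. Uqcr10 had a median of 0.46 over regions and Atp5md of 0.42. The subunit c gene Atp5g2 and the stalk gene Atp5o were above 0 in 7 of 14 regions, with medians of 0.02 and 0.01. Atp5b was above 0 in 9 regions, from -0.46 to 0.34.

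Within each group the 2 sections differed in the same genes by about as much as the groups did. Over the 44 members of the whole-section test, the median log2 ratio was 0.24 for Trained 2 over Trained 1 and 0.17 for Untrained 2 over Untrained 1, with 41 and 40 members above 0. It was 0.11 for Trained 1 over Untrained 2, with 39 members above 0. The corresponding medians over all genes tested were 0.10, 0.01 and 0.02. Without Trained 1, 13 of 44 members were called in the whole section (5.96% of all genes tested in that fit) and 8 of 40 in the hippocampal layers (1.07%), all higher except Cox8b, and both sets held Atp5j2, Atp5md, Cox6c, Cox7c, Uqcr10, Uqcr11 and Uqcrq; in that fit 1 Trained section stands alone and is assumed to vary as the Untrained ones do.

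Most members have short transcripts, and other short transcripts had estimates above 0 as well. The median transcript length in GENCODE vM21 was 652 bases for the 44 members and 2707 bases for all genes tested. Members under 500 bases had a median log2 fold change of 0.32 (11 genes), those of 500 to 700 bases 0.26 (13 genes), those of 700 to 1000 bases 0.13 (8 genes), those of 1000 to 2000 bases 0.11 (9 genes) and those of 2000 to 4000 bases 0.13 (3 genes). Genes that are not members had medians of 0.15, 0.17, 0.06, 0.04 and 0.00 in these classes and -0.04 at 4000 bases and over (3567 genes). Across the 44 members Spearman's rho between length and log2 fold change was -0.39 and Pearson's r on log2 length -0.13; genes of 1 library set share its depth and base composition, and these values are a description. Cycs, at 3123 bases, stands apart from the other long members. Length classes also differed between sections of 1 group: genes under 500 bases had a median log2 ratio of 0.22 for Trained 2 over Trained 1 and 0.23 for Untrained 2 over Untrained 1, and genes of 4000 bases and over 0.06 and -0.03. The part of transcript length in the members' difference was not tested.

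**Figure D3:**
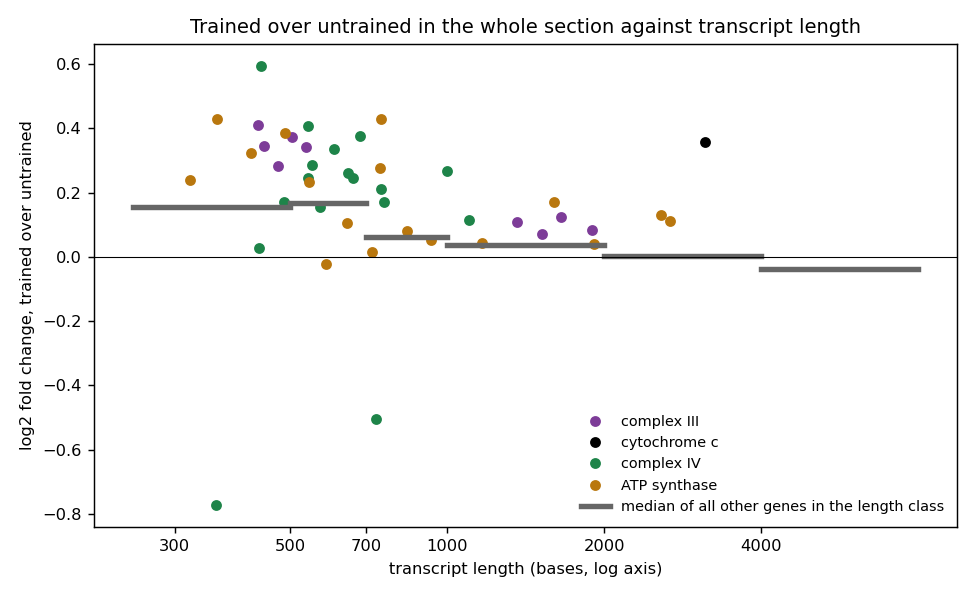
Log2 fold change of each tested member in the whole section, Trained over Untrained (vertical axis), against its transcript length in bases (horizontal log axis), colored by complex; grey bars give the median of all genes that are not members in 6 length classes. Members under 500 bases center on 0.32 and other genes of that length on 0.15; at 1000 to 2000 bases the medians are 0.11 and 0.04.

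Related gene lists were read the same way in the whole section. Complex I (Nduf genes) had 35 of 38 members above 0 with a median of 0.25, and complex II (Sdha to Sdhd) 4 of 4 with a median of 0.08. Assembly factors of the complexes had 25 of 28 tested above 0 (median 0.16), the carriers Slc25a3, Slc25a4 and Slc25a5 3 of 3 (0.07), the list of inhibitor and regulators 4 of 8 (0.09), and the proteins of the cytoplasmic ribosome 56 of 76 (0.06). The 13 mitochondrially encoded genes, which hold the partner subunits, were all below 0 with a median of -0.45. Their share of whole-section UMIs was 12.2% and 6.83% in Trained 1 and 2 against 12.1% and 11.6% in the Untrained sections. Trained 2 thus stood apart in the whole section, but not in the hippocampal layers. There the share was 10.0% and 10.8% in Trained 1 and 2 and 11.2% and 10.3% in Untrained 1 and 2. In the DG granule layer Trained 2 had the highest share, 14.7%. None of these lists held a called gene, in the whole section or the hippocampal layers. When the mitochondrially encoded genes and 3 other abundant genes were left out before normalization, the median of the members was 0.22, as before. Lists of region markers also differed between sections: the thalamus markers summed to 1162 CPM in Trained 2 and to 681 to 769 CPM in the other 3 sections, the hypothalamus markers to 2983 CPM in Trained 2 and to 941 to 1856 CPM in the others, and the striatum markers to 515 and 577 CPM in Trained 1 and 2 and to 404 and 376 CPM in Untrained 1 and 2. The hemoglobin and erythroid list was lowest in Trained 2, at 454 CPM against 638 to 817 CPM, and the nuclear-retained RNAs summed to 2226 and 2693 CPM in Trained 1 and 2 and to 2623 and 1962 CPM in Untrained 1 and 2. The part of cell composition in the members' difference was not tested.

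The difference between Trained and Untrained sections was also compared between regions, and no member was called. In a test of the Trained over Untrained difference in 1 region minus its mean in the other 13, 0 of 574 member-region pairs were called (0.0122% of all gene-region pairs; DESeq2 also 0), 7 had an unadjusted p under 0.05 (4.83% of all pairs), and the lowest edgeR adjusted p of a member was 0.857.

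Between brain regions, the largest differences of members were those of a few isoforms. Each region was set against the average of the other 13 in an edgeR quasi-likelihood fit of region sums with the section as a block, and 89 of 574 member-region pairs were called (15.5%), against 16.3% of all gene-region pairs: 59 higher and 30 lower, with 36 of the 41 tested members called in at least 1 region (71.3% of all genes tested were). How the share of members stood to that of all pairs depended on the fit: it was 5.4% against 12.7% with no section block, 10.5% against 18.4% with stricter regions, 6.1% against 12.5% without Trained 1, 7.67% against 12.2% without Untrained 2 and 20.7% against 15.2% with DESeq2. The test treats the sums of 1 section as independent beyond the block. The 38 members tested in all regions for training had a ratio of the highest to the lowest regional mean CPM that ran from 1.19 for Atp5e to 1.78 for Cox5a. The isoforms Cox7a1, Cox6a2, Cox6b2 and Cox8b varied more.

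**Figure D4:**
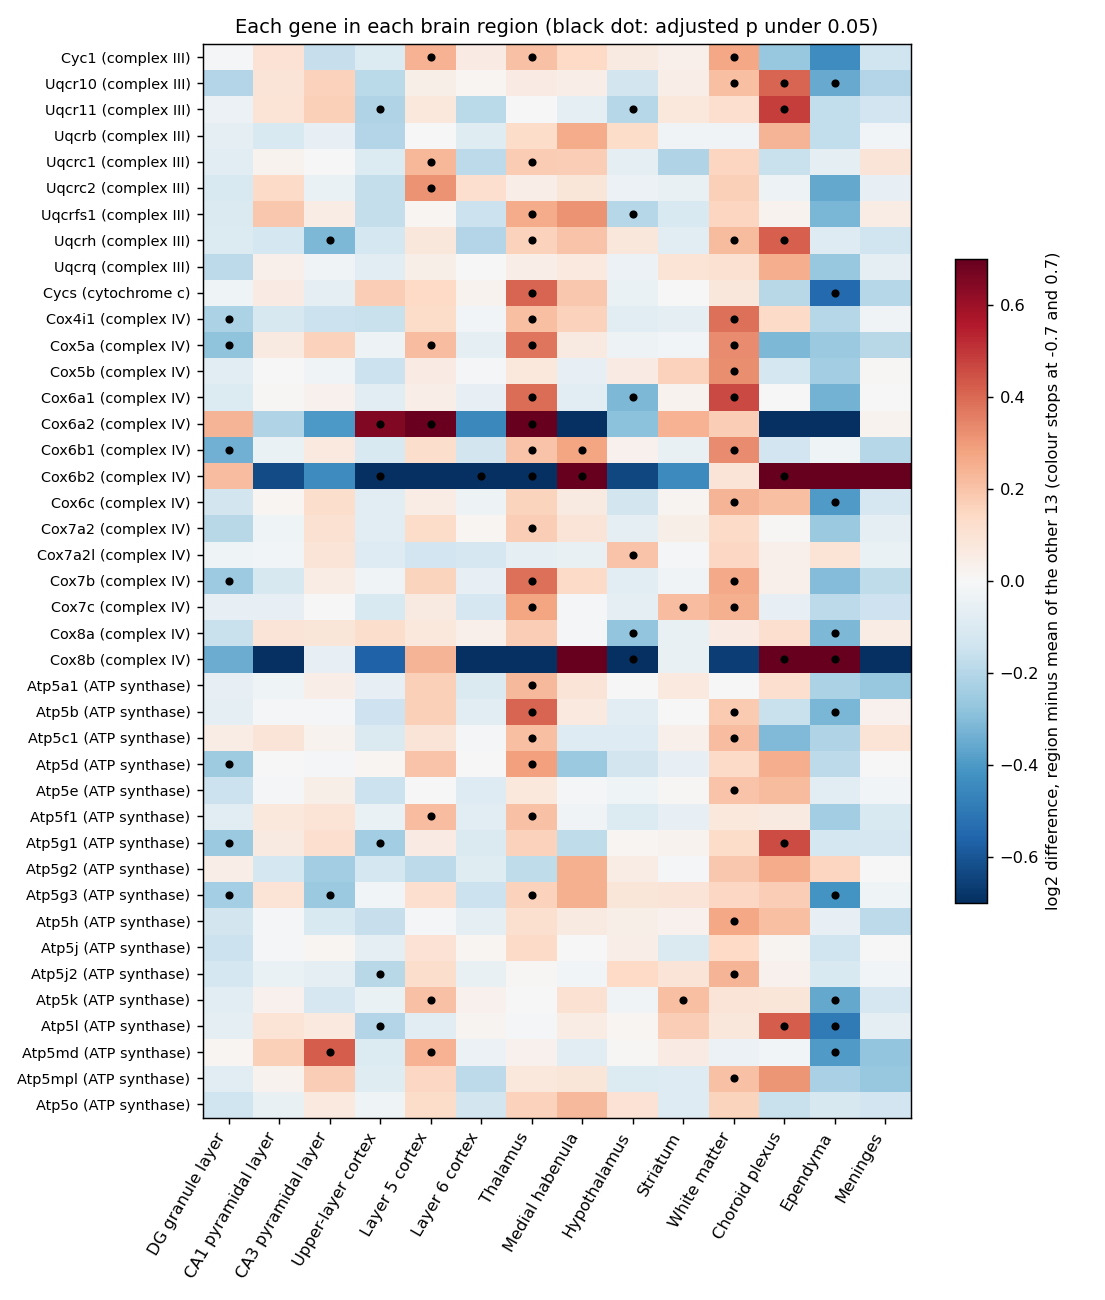
Log2 difference of each of the 41 tested members (rows) in each brain region (columns) from the mean of the other 13 regions, red for higher and blue for lower, with color ending at -0.7 and 0.7; black dots mark the 89 pairs with an edgeR adjusted p under 0.05. Thalamus and white matter are mostly red (19 and 17 members called higher), and the DG granule layer, upper-layer cortex and ependyma mostly blue (7, 5 and 9 called lower). Layer 6 cortex and the meninges are also mostly blue, with 1 and 0 called lower.

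The thalamus had the most calls: 19 members were higher (19.2% of all genes tested were) and 1, Cox6b2, was lower (15% of all genes). The 19 became 9 with no section block (15.5% of all genes), 12 without Trained 1 (16.5%), 11 without Trained 2 (15.2%) and 12 without Untrained 1 (17%). The largest difference was Cox6a2, the muscle isoform of subunit 6a, at 158, 143, 94.98 and 152 CPM in the thalamus of Trained 1, Trained 2, Untrained 1 and Untrained 2, with a mean of 137 ± 28.7 CPM (SD, n = 4) against 27.3 ± 7.35 CPM in the other regions (log2 difference 2.36 ± 0.13 SE, edgeR adjusted p = 3.91e-34). It was above the other regions in 4 of 4 sections. Atp5b, the catalytic beta subunit, was at 1583 ± 47.0 CPM against 1197 ± 58.0 (0.41 ± 0.06, adjusted p = 1.8e-08) and Cycs at 425 ± 92.2 CPM against 323 ± 53.1 (0.41 ± 0.07, adjusted p = 2.81e-07). Both were higher in the thalamus in 4 of 4 sections. Cox6a1, Cox7b, Cox5a and Atp5d followed with 0.39, 0.39, 0.38 and 0.29, and Uqcrfs1 led complex III with 0.26.

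Cox6a2 was spread over the section and dense in the thalamus. Thalamus spots were 13.2% to 15.1% of all spots and held 149 of the 347 Cox6a2 UMIs of Trained 1, 284 of 643 in Trained 2, 37 of 109 in Untrained 1 and 115 of 319 in Untrained 2. As a share of the UMIs of both subunit 6a genes, Cox6a2 was 9.79% ± 1.69 (SD, n = 4) in the thalamus and 1.55% to 4.65%, by regional mean, in the other 13 regions. It was also called higher in upper-layer cortex (0.65 ± 0.22, edgeR adjusted p = 0.0203) and layer 5 cortex (0.69 ± 0.22, adjusted p = 0.018), each in 3 of 4 sections; without Trained 2 or without Untrained 2 neither call was made, and DESeq2 did not call the second.

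**Figure D5:**
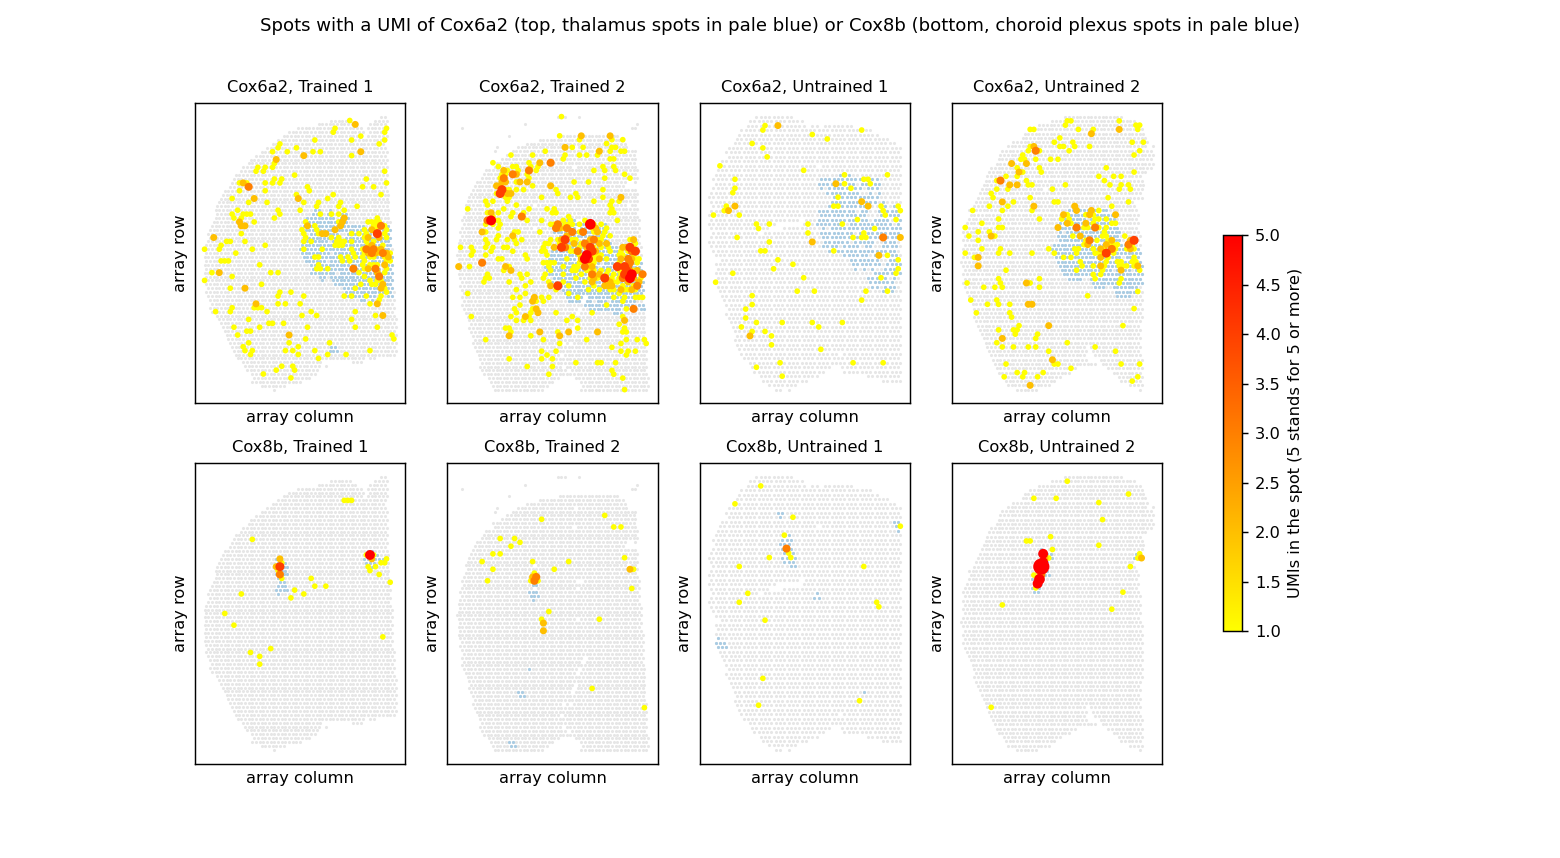
Position of every spot on the array (columns across, rows down) in the 4 sections, with the spots that held a UMI of Cox6a2 (top) or Cox8b (bottom) in yellow to red by number of UMIs, and thalamus or choroid plexus spots in pale blue. Cox6a2 is dense in the thalamus of each section, where 37 to 284 of its UMIs lay. Choroid plexus spots held 23 of the 49 Cox8b UMIs of Trained 1 and 5 of 41 in Trained 2. They held 6 of 21 in Untrained 1 and 50 of 70 in Untrained 2.

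White matter had 17 members called higher (15.7% of all genes tested were) and 0 lower (10.9%). Complex IV led: Cox6a1 was at 1266, 1361, 1043 and 1310 CPM in Trained 1, Trained 2, Untrained 1 and Untrained 2, 1245 ± 140 CPM (SD, n = 4) against 959 ± 132 in the other regions (log2 difference 0.46 ± 0.07, edgeR adjusted p = 5.49e-08), and higher in 4 of 4 sections. Cox4i1 gave 0.38 ± 0.07, and Cox6b1, Cox5a and Cox5b gave 0.33, 0.33 and 0.32. Atp5h, subunit d, was the highest of ATP synthase at 0.27 ± 0.07. Counted in either direction, 17 of 41 members (41.5%) were called in white matter, against 26.6% of all genes tested. Under stricter region borders this was 6 of 40 (15%), against 30% of all genes tested in that fit in either direction. With no section block it was 7 of 41 (17.1%), against 21.8%, and without Trained 1 10 of 41 (24.4%), against 23.8%.

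Layer 5 cortex had 8 members called higher (9.48% of all genes tested) and 0 lower (5.32%), with Uqcrc2 at 0.32 ± 0.09 (edgeR adjusted p = 0.0107) and Atp5md at 0.24 ± 0.07 (adjusted p = 0.0108) beside Cox6a2. Without Trained 2 none of the 8 regional calls was made, 1 call was made without Untrained 2, and Untrained 1 holds part of the dorsal cortex only. Over all regions and in either direction, 12.4% and 12.2% of all gene-region pairs were called in those 2 fits. Upper-layer cortex had 1 higher (Cox6a2; 13.1% of all genes were higher) and 5 lower (7.29%): Cox6b2 at -1.86 ± 0.52, Atp5g1 at -0.24 ± 0.08, Uqcr11 at -0.21 ± 0.08, Atp5l at -0.20 ± 0.07 and Atp5j2 at -0.19 ± 0.07. The 5 became 14 with DESeq2 (7.79% of all genes), 1 with no section block (5.2%), 0 without Trained 1 (4.97%) and 1 without Untrained 2 (4.47%). Layer 6 cortex had 0 higher (8.59%) and only Cox6b2 lower (3.81%), at -1.55 ± 0.51 (edgeR adjusted p = 0.0309); without Trained 2 that value was -0.47 with an adjusted p of 0.837.

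Of the hippocampal layers, the DG granule layer stood lowest. There 7 members were lower (5.9% of all genes tested) and 0 higher (10.5%). Cox6b1 was at 538, 630, 463 and 539 CPM in Trained 1, Trained 2, Untrained 1 and Untrained 2, 543 ± 68.4 CPM (SD, n = 4) against 688 ± 53.1 in the other regions (-0.34 ± 0.08, edgeR adjusted p = 0.00132), and Cox5a at 454 ± 6.94 CPM against 548 ± 59.4 (-0.28 ± 0.09, adjusted p = 0.0215). Both were lower in 4 of 4 sections. Atp5g1 followed at -0.26 ± 0.09. Without Trained 1 no member was called lower there (3.34% of all genes were), and 1 was with no section block (4.35%) and without Untrained 2 (3.62%). In the CA3 pyramidal layer Atp5md was higher (8.41% of all genes were), at 1633, 2210, 1282 and 1647 CPM, 1693 ± 384 CPM against 1215 ± 318 in the other regions (0.42 ± 0.08, adjusted p = 9.61e-06), in 4 of 4 sections, and this call was made under each alternative setting run. Uqcrh, the hinge protein of complex III, at -0.31 ± 0.10, and Atp5g3 at -0.26 ± 0.09 were lower there (4.31% of all genes), and no member was with no section block, without Trained 1, without Trained 2 or without Untrained 2. In the CA1 pyramidal layer 0 members were called (9.9% of all genes were higher and 4.02% lower), also by DESeq2; the median log2 difference of the 41 members was 0.00.

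The choroid plexus held the largest differences of all. There 7 members were higher (8.38% of all genes tested) and 0 lower (7.74%), led by Cox8b and Cox6b2. The 7 became 19 with DESeq2 (13.9% of all genes), 2 without Trained 1 (5.56%), 13 without Trained 2 (9.78%) and 3 without Untrained 2 (5.61%). Cox8b was at 198, 106, 128 and 423 CPM in the choroid plexus of Trained 1, Trained 2, Untrained 1 and Untrained 2 (23, 5, 6 and 50 UMIs), against 5.64 ± 2.56 CPM (SD, n = 4) in the other regions (log2 difference 6.13 ± 0.35, edgeR adjusted p = 3.43e-31). Each other region held 0 to 10 Cox8b UMIs per section, so that the choroid plexus counts took Cox8b past the filter on low counts. Its p-value thus comes from a gene kept through the region where it is high. Cox6b2 was at 112, 85.1, 42.8 and 127 CPM (13, 4, 2 and 15 UMIs) against 11.98 ± 3.13 (3.53 ± 0.39, adjusted p = 7.07e-13). Every choroid plexus section lay above every mean of the other regions for both genes, and Trained and Untrained sections overlapped. The third was Uqcr11, at 0.49 ± 0.11. Cox8b made up 10.3% ± 6.07 (SD, n = 4) of the UMIs of both subunit 8 genes there, and 0.0177% to 1.75%, by regional mean, elsewhere; Cox6b2 made up 14.5% ± 5.28 of the subunit 6b pair, and 0.489% to 5.8% elsewhere.

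The choroid plexus region was small: it held 45, 21, 41 and 38 spots in Trained 1, Trained 2, Untrained 1 and Untrained 2. Its 8 markers (Kcne2, Folr1 and others) summed to 1170 to 2959 CPM in it, and to 24.4 to 93.0 CPM in the whole section. In Trained 2 part of its spots lay away from the ventricle. Without Trained 2 the log2 differences of Cox8b and Cox6b2 were 6.47 and 3.90. In the whole section, where Cox8b was lowest in Trained 2, the choroid plexus markers were also lowest there, at 24.4 CPM against 61.8 to 93.0 CPM in the other 3 sections; the part of choroid plexus tissue in the Cox8b difference between Trained and Untrained sections was not tested.

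The ependyma, which lines the ventricles next to the choroid plexus, showed Cox8b higher (4.29% of all genes tested) and 9 members lower (3.12%). The 9 became 2 with no section block (2.56% of all genes), 1 without Trained 1 (1.08%), 3 without Trained 2 (1.91%) and 4 without Untrained 2 (2.28%). Cox8b was at 13.3, 86.3, 21.5 and 0 CPM, so that the rise (3.16 ± 0.64, edgeR adjusted p = 0.000174) rested on Trained 2: without it the log2 difference was 1.58 with an adjusted p of 0.413. The choroid plexus markers in the ependyma spots had the highest sum in the same section, at 160, 242, 86.1 and 0 CPM in Trained 1, Trained 2, Untrained 1 and Untrained 2; their part in the Cox8b difference was not tested. The largest falls were Cycs at -0.54 ± 0.16, Atp5l, subunit g, at -0.49 ± 0.12 and Atp5g3 at -0.42 ± 0.12; all 3 were below the other regions in 4 of 4 sections. In the meninges 0 members were called (2.54% of all genes were higher and 0.172% lower), and DESeq2 called 1 higher and 1 lower (3.58% and 0.0859% of all genes in that fit).

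Smaller sets were called in the remaining regions. In the medial habenula Cox6b2 (27.2, 24.6, 27.3 and 54.5 CPM against 16.5 ± 5.05 in the other regions; 1.40 ± 0.44, edgeR adjusted p = 0.0353) and Cox6b1 (0.28 ± 0.09) were higher (4.07% of all genes) and 0 lower (2.54%), and without either Untrained section no member was called there. In the hypothalamus Cox7a2l was higher, at 0.20 ± 0.07 (13.9% of all genes), and Cox8b, Cox6a1, Cox8a, Uqcr11 and Uqcrfs1 were lower (11.8%), Cox8b at -2.68 ± 0.75 on 2 UMIs, both in Trained 2, Cox6a1 at -0.32 ± 0.07 and Cox8a at -0.28 ± 0.08. Those lower became 10 with DESeq2 (11.9% of all genes) and 2 with no section block (8.44%) or without Trained 1 (9.06%). In the striatum Cox7c (0.21 ± 0.07) and Atp5k, subunit e (0.21 ± 0.07), were higher (11.7% of all genes) and 0 lower (6.55%); without Trained 1, without Untrained 1 or with no section block neither was called.

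The promoters of the 2 isoform pairs with the largest regional differences are shown as the sequences of those 4 genes. They come from RefSeq (build GRCm38.p6), run 5′ to 3′ from 250 bases before to 50 bases after the start of the gene, and are all on the minus strand; capitals mark matches on either strand to CCGGAAG, a core bound by ETS factors such as GABP (the reverse complement is CTTCCGG), or to TATAAA, the TATA box (reverse complement TTTATA).
Cox8a, chr19:7217567-7217866: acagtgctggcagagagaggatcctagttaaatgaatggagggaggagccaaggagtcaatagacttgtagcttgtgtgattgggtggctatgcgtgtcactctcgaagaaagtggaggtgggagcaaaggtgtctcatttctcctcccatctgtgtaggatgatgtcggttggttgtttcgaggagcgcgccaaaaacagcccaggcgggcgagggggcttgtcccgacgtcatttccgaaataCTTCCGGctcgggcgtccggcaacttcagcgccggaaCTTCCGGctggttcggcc
Cox8b, chr7:140900397-140900696: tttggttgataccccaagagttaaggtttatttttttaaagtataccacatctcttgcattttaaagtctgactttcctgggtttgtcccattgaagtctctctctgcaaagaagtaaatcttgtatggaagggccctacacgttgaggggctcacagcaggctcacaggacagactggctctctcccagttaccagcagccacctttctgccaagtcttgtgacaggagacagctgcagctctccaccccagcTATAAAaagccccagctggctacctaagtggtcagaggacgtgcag
Cox6b1, chr7:30626065-30626364: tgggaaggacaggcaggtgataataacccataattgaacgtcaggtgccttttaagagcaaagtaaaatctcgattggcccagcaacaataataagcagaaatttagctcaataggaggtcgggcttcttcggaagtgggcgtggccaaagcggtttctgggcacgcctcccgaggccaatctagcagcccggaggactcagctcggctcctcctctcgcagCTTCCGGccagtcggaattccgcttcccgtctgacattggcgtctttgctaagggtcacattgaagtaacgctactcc
Cox6b2, chr7:4753045-4753344: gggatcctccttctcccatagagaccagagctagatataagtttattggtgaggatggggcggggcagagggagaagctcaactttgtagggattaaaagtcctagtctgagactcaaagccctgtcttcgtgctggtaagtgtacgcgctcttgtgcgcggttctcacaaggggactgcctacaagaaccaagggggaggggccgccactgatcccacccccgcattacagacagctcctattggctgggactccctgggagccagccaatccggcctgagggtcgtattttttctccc
The Cox8a promoter holds 2 matches to the ETS core and the Cox6b1 promoter 1, while the Cox8b promoter holds 1 TATA box and no ETS core, and the Cox6b2 promoter neither. This is not the rule over the isoform pairs: neither Cox7a2 nor Cox7a1, and neither Cox7b nor Cox7b2, holds an ETS core. Cox8b (chromosome 7, 140898945 to 140900446), Cox6b2 (chromosome 7, 4751792 to 4753094) and Cox6a2 (chromosome 7, 128205435 to 128206387) lie on the minus strand of the same chromosome in mm10, as annotated by GENCODE vM21. Cox6b1 lies on that strand too, and Cox7a1 and Uqcrc2 on the plus strand of that chromosome.

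RefSeq promoters were found for 33 of the 45 members. The ETS core was found in 11 of them, 33.3%, against 9.93% of the 27025 genes with a promoter in the table: Cox6a1, Cox6b1, Cox8a, Uqcr11, Uqcrh, Atp5e, Atp5h, Atp5j, Atp5k, Atp5l and Atp5md. The palindromic site of NRF1, nuclear respiratory factor 1, searched on both strands, was found in 8, 24.2%, against 5.19% of all genes: Uqcrc1, Cox6a1, Atp5c1, Atp5g2, Atp5g3, Atp5h, Atp5k and Atp5o. TATAAA was found in 4, 12.1%, against 15.7%: Cox7b2, Cox8b, Atp5l and Atp5md. ATGGCGGC, a YY1 core (reverse complement GCCGCCAT), was found in 0 of 33, against 2.61% of all genes. A match describes the letters of this window only.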

How the data were processed

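Per the file headers, the deposited matrices hold whole-number UMI counts per gene and spot over tissue, made by the authors with Space Ranger (1.2.2 in the headers); the study's methods name mm10, and the submitters' processing notes also name Cell Ranger 8, STAR and GRCm39. mm10 is used here, and no count was normalized before deposit.

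Spots were assigned to a region by 96 marker genes (normalized score of at least 0.5 and 2 like neighbours), without a deposited annotation. Counts were summed per section, and per region and section, where a region had at least 10 spots in each section. Sums were fitted over all genes with edgeR 4.0.16 (filterByExpr, TMM, quasi-likelihood test; R 4.3.3, limma 3.58.1) and adjusted by Benjamini-Hochberg; DESeq2 1.42.0 was an alternative. A section is 1 mouse, so spots are not replicates. Each section was its own library, and section and mouse cannot be told apart. The fits were tested on simulated data. Transcript lengths are from GENCODE vM21 and promoters from RefSeq.

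Members and lists were chosen with earlier results of these data known. Genes named are those called in a comparison, the 5 largest rises and falls, the 8 most abundant, the core subunits, the tissue isoforms, and the 3 largest differences per region. The labels do not pair same-numbered sections, and the deviations of these correlated at 0.0190 over 13810 genes. That value covers all genes and cannot show whether such sections shared a batch. In the whole section 41 of 44 members were higher in Trained 2 than in Trained 1, and 40 in Untrained 2 than in Untrained 1. A batch shared by number was not tested. The summed level of 1 marker list is not reported here.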

Additional observations from a re-analysis of the deposited data

How the results depend on the processing

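With 2 sections per group, each value rests on few mice, and low counts limit the tissue isoforms and the small regions. Between Trained and Untrained sections, the count of members called in the whole section was 0, 2 with no filter on low counts (1.05% of all genes tested in that fit), and 0 to 13 when 1 section was left out (0.014% to 5.96%). With 1 section left out it was 0 to 8 in the hippocampal layers (0.0607% to 1.07%) and 0 to 17 over the regions (0.0891% to 0.753%). The median log2 fold change in the hippocampal layers ran from 0.10 to 0.28 when 1 section was left out. With the replicate block the medians were 0.22 in the whole section and 0.22 in the hippocampal layers, and 0 members were called. Between regions, the 89 pairs called became 31 with no section block (5.4% of member pairs, against 12.7% of all pairs in that fit), 59 with stricter regions (10.5% against 18.4%) and 35 to 83 with 1 section left out (6.1% to 14.5%, against 12.2% to 14.6%); those higher became 24 with no section block (4.18% against 8.02%) and 31 to 50 with 1 section left out (5.4% to 8.71%, against 7.83% to 9.1%), and those lower became 51 with DESeq2 (8.89% against 5.84%), 7 with no section block (1.22% against 4.66%), 19 with stricter regions (3.39% against 7.2%) and 4 to 33 with 1 section left out (0.697% to 5.75%, against 4.37% to 5.46%). The cause was not tested. Alternatives for the share of UMIs were chosen after seeing the data, and the 0.60 percentage point difference ran from 0.35 to 0.85 in them.

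Some log2 fold changes near 0 changed sign. In the whole section, leaving out 1 section at a time moved Atp5c1 from -0.000676 to 0.0787, Atp5g2 from -0.0849 to 0.0441, Atp5g3 from -0.0529 to 0.0849 and Cox6b2 from -0.158 to 0.329. There, thinning to the smallest total gave Atp5g2 0.00474. In the hippocampal layers, leaving out 1 section at a time moved Atp5c1 from -0.0935 to 0.00805, Atp5g1 from -0.159 to 0.225, Atp5g2 from -0.17 to 0.118, Atp5g3 from -0.00932 to 0.0645, Atp5o from -0.139 to 0.0655, Cox7a2l from -0.0426 to 0.168, Cyc1 from -0.176 to 0.111 and Uqcrc2 from -0.108 to 0.00736. There, stricter regions gave Atp5d 0.053, Atp5g1 -0.0354 and Cox7a2l -0.109. There, leaving out the mitochondrially encoded genes, Bc1, Ttr and Gm42418 gave Atp5g1 -0.00445. There, thinning to the smallest total gave Atp5g2 0.041 and Cox7a2l -0.0601.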
